A study of Mus musculus with 4 samples.

Results

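The genes described here are the mouse major histocompatibility complex (MHC) genes and the core genes of antigen presentation. They were taken from the array by symbol: every probe for a gene whose symbol begins with H2-, the mouse MHC prefix, and every probe for B2m, Cd74, Ciita, Tap1, Tap2, Tapbp, Psmb8, Psmb9, Psmb10 or Nlrc5. This gave 51 of the 30222 gene symbols on the array and 67 of its 39429 probes, 55 of them for 41 symbols that begin with H2-. The rule uses symbols and no measured values. H2-Ke2 and H2-Ke6 carry the prefix because of where they lie. They encode a prefoldin subunit and a steroid dehydrogenase, not antigen-presenting proteins.

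RNA of 4 mouse samples was read on 1 single-colour array each, all on 1 slide. The stem cells were mesenchymal stem cells of the C3H background, derived from embryos and grown in culture. The transfected tissue was the ligament-like tissue made from such cells, also C3H, after they received a synthesized mouse sequence named only A in the plasmid pCAGGS, which drives strong expression in most cell types. The ligaments were the C57BL/6J wild type ligament, and the ligament of C57BL/6J mice of the genotype A transgenic, made by introducing the same plasmid into fertilized eggs. The ages of the mice, the site of the ligament, and how many animals or cultures lay behind each array were not given in the sources used here. With 1 array a group there was no test, so every difference is that between arrays, and a vector without A was not analysed here. Cells and ligaments differed in strain as well as in origin, and these cannot be told apart. C3H and C57BL/6J mice carry different MHC haplotypes, so a probe can also meet a different allele in each.

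Class I MHC molecules sit on nearly all nucleated cells and show peptides cut from the cell's own proteins to CD8 T cells. A polymorphic heavy chain pairs with the light chain beta-2 microglobulin, and the peptides are cut by the proteasome, carried into the endoplasmic reticulum by the Tap transporter and loaded with the help of tapasin. Class II molecules show peptides from endocytosed proteins to CD4 T cells and are mostly made by dendritic cells, macrophages and B cells. Interferon-gamma raises both routes, through the transactivators Nlrc5 for class I and Ciita for class II.

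Several probes are shown first, because heavy chain genes resemble each other and the reading of a probe depends on its letters. The array uses probes of 60 bases. Positions are those of the files, in mm9, and their place in exons or untranslated regions was not analysed here. H2-K1 had a pair of probes. The probe repeated in 10 spots lay at chr17:34133055-34133114, and its first 30 bases are printed. The probe with a single spot lay at chr17:34133984-34134043 and is printed whole.
H2-K1 repeated probe: tgaatgtaaccttgattgttatcatcttga
H2-K1 single probe: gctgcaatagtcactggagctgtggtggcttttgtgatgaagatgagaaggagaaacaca

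H2-Q10 also had a pair. The first H2-Q10 probe (chr17:35610036-35610095) shares a stretch of 50 bases with 1 of the H2-Q2 probes (chr17:35460007-35460066) at 90.0% identity, with the 5 differing bases in capitals. The second (chr17:35611449-35611508) matched no other member probe, and its first 30 bases are given.
H2-Q10 first probe: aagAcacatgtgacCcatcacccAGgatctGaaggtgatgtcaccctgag
H2-Q2 probe: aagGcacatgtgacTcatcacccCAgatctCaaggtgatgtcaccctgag
H2-Q10 second probe: aagaattaagaatacttagagtttgtggag

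The pair for the class II beta chain H2-Ab1 covers nearly the same site (chr17:34406296-34406355 and chr17:34406305-34406363) and differs by 1 base in the 51 shared, C15T counted from the first base of the stretch shown, in capitals.
H2-Ab1 one probe: caaataaacgagacCcagactctg
H2-Ab1 other probe: caaataaacgagacTcagactctg

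Across the members, 7 pairs of probes shared at least 30 bases at 80% identity or more. They involved 11 probes, 9 of them among the 40 probes for class I heavy chains, and 2 of the pairs joined H2-K2 with H2-Q7. Values of single heavy chain genes are therefore uncertain where RNA of a relative could bind.

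Upstream sequence was taken from RefSeq (GRCm38.p6), which held 34 of the 51 symbols. Over the 250 bases before the start site, 4 motifs were searched on both strands. GGGATTCCC, the core of the NF-kappa-B site known from class I promoters, was in 4 members (H2-K1, H2-D1, H2-Q6 and H2-Q7) and in 99 of 32851 promoters overall (0.301%). CCAAT was in 28 members against 33.8% of all promoters. The interferon-response core GAAANNGAA was in 2 (B2m and H2-T23) against 7.13%, and the STAT-type TTCNNNGAA was in 4 (Psmb8, H2-M3, H2-M11 and H2-DMb2) against 7.02%. A match describes letters only. The promoters below are those of the classical heavy chains, the light chain, Tap1 and the class II chain H2-Eb1, genes on which the results turn. Capitals mark every match, read on the gene's strand, so ATTGG is CCAAT on the other strand, and no matches overlap.
H2-K1 (chr17:34000348-34000597, minus strand): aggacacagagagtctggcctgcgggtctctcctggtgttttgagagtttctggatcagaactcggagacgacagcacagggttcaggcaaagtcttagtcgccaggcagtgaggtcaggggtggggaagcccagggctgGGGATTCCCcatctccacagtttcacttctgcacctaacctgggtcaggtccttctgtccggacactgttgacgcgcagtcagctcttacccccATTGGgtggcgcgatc
H2-D1 (chr17:35262844-35263093, plus strand): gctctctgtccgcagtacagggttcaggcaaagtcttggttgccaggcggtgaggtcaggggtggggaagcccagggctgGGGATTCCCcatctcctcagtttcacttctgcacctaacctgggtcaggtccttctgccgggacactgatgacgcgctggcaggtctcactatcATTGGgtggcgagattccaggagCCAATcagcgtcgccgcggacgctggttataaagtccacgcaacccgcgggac
B2m (chr2:122147437-122147686, plus strand): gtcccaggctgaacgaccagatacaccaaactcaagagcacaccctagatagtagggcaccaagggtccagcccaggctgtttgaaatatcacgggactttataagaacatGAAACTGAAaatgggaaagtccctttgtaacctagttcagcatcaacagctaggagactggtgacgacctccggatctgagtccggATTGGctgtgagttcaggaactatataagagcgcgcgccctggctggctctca
Tap1 (chr17:34187306-34187555, plus strand): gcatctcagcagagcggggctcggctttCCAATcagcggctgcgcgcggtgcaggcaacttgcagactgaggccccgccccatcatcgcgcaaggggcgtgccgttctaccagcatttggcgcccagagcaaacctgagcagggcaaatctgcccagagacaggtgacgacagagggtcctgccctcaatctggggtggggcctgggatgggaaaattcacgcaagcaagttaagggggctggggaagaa
H2-Eb1 (chr17:34305617-34305866, plus strand): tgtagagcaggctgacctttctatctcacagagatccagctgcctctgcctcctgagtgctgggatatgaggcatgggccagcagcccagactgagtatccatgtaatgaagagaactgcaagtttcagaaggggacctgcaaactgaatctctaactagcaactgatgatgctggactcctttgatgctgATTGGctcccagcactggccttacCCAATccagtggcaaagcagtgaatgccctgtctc

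The Tap1 and Psmb9 start sites face away from each other. Their RefSeq windows, taken here as 250 bases before and 50 after the start, share 275 bases on opposite strands.

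Levels below are normalised signals, the log2 processed signal of a probe less the 75th percentile of its array, and differences are between such levels, so a difference of 1 is 2-fold. The scanner software marks spots that are well above background, and a probe entered a comparison when 1 or both of its arrays had this mark. If 1 array lacked the mark, the fold is only a bound ("at least"). The dim side was then set to the lowest marked signal of that array, or to the probe's own reading where that was higher. Between 48.97% and 56.35% of spots were well above background on an array, none was saturated, and 155 to 281 of 43020 spots an array were left out as outliers. The 75th percentile signal was 1169 and 2260 on the stem cell and tissue arrays, and 286 and 303 on those of the wild type and transgenic ligaments, so weak probes had less room above background in ligament. The SD over 10 spots of 1 probe was 0.0655 to 0.185 on the log2 scale. This gave a spot noise of 0.196 for tissue minus stem cells, 0.146 for transgenic minus wild type, 0.21 for wild type ligament minus stem cells and 0.119 for tissue minus wild type ligament, without any spread between cultures or animals. Mesenchymal markers were well above background for 8 of 9 genes in stem cells and tissue, where Nt5e was not, and the tendon markers Tnmd and Scx were detected on all 4 arrays, with Tnmd 3.82-fold lower in wild type ligament than in stem cells. Mkx was not well above background in the wild type ligament alone.

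Of the 67 member probes, 35 were well above background in stem cells, 36 in the transfected tissue and 40 in each ligament. The count on all 4 arrays was 32, and 20 probes were well above background on none. For 11 symbols no probe was detected: H2-DMb2, H2-Ea-ps, H2-Eb2, H2-M5, H2-M10.1, H2-M10.2, H2-M10.3, H2-M10.6, H2-Q1, H2-T3 and H2-T18. H2-Ea-ps names the alpha chain of the E molecule, a pseudogene in C57BL/6 mice. One of the probes for Psmb9, Nlrc5, H2-M2, H2-M9 and H2-Ob was also dim on all arrays, so these genes rest on their remaining probes.

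**Figure D1:**
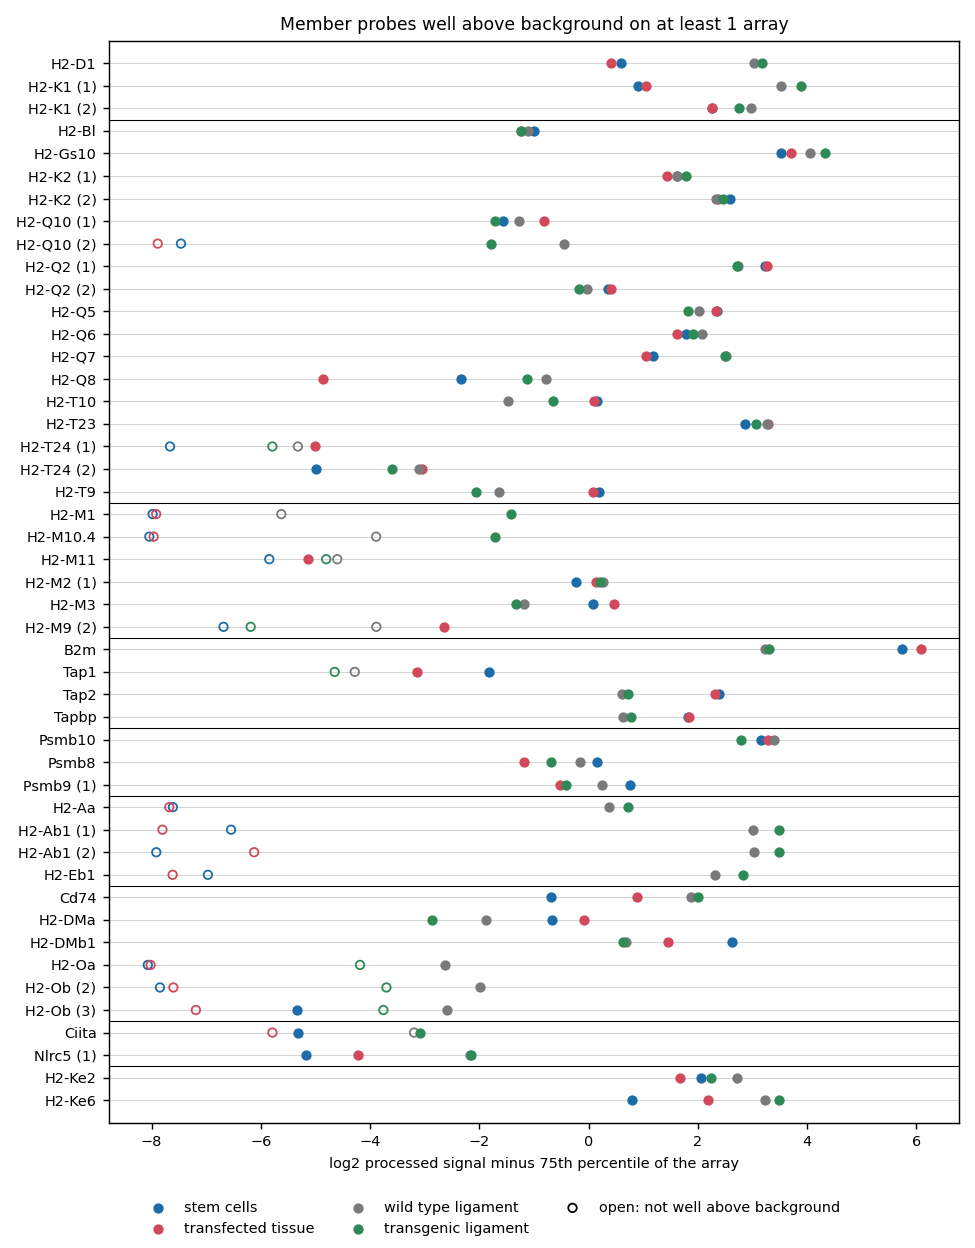
Normalised signal (log2, horizontal axis) of the member probes well above background on at least 1 array, grouped by role, with 1 point per array coloured by sample and open points not well above background. Numbers in brackets tell probes of a symbol apart. The class II chains H2-Aa, H2-Ab1 and H2-Eb1 are filled in the ligaments only, while B2m, Tap2 and Tapbp lie further right in the cultured samples.

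The classical heavy chains H2-K1 and H2-D1 present peptides to CD8 T cells. They were nearly equal in the stem cells and the tissue made from them. All 3 of their probes read higher in both ligaments, 2 of them by 2-fold or more. H2-D1 measured 0.60 in stem cells, 0.41 in tissue, 3.03 in wild type and 3.17 in transgenic ligament. The repeated H2-K1 probe measured 0.90, 1.06, 3.52 and 3.88 in the same order, with spot SDs of 0.061, 0.044, 0.029 and 0.048. The single H2-K1 probe measured 2.27, 2.26, 2.98 and 2.75. So the H2-K1 probes parted from each other. Wild type ligament minus stem cells was 2.62 (6.14-fold) by the repeated probe and 0.71 (1.64-fold) by the single probe, and 2.43 (5.38-fold) for H2-D1. Transgenic minus wild type was 0.37 and -0.23 by the H2-K1 probes, opposite in sign, and 0.15 for H2-D1. Whether allele differences between C3H and C57BL/6J shift these probes was not tested.

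**Figure D2:**
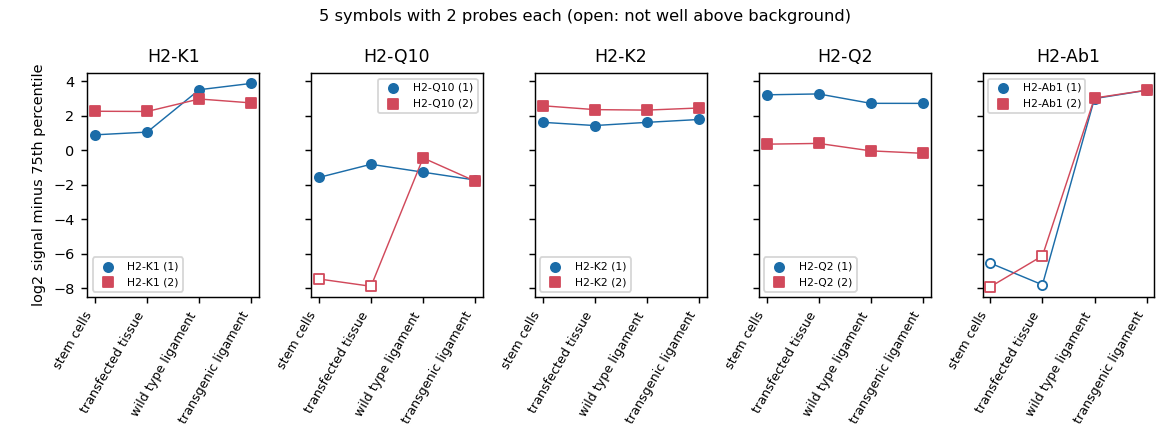
Normalised signal (log2, vertical axis) on the 4 arrays for 5 symbols with a pair of probes each, with open symbols not well above background. The lines for H2-K2, H2-Q2 and H2-Ab1 run side by side in the samples where both are detected, while those for H2-K1 and H2-Q10 change by different amounts between the cultured samples and wild type ligament.

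The plot of probe pairs sets this beside the other class I genes. The probes for H2-K2 differed by 0.251 or less in any comparison and those for H2-Q2 by 0.139 or less. H2-Q10, a heavy chain known as a secreted liver product, stood apart. Its first probe, the one close to H2-Q2 in sequence, measured -1.57 in stem cells, -0.81 in tissue, -1.27 in wild type and -1.72 in transgenic ligament. The second probe was not well above background in stem cells or tissue and measured -0.44 and -1.79 in wild type and transgenic ligament. By the second probe wild type ligament was at least 40.8-fold above stem cells, against 1.24-fold by the first.

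The other class I heavy chains of the Q and T regions have lower and more restricted expression as a rule, and several present to innate-like T cells or bind NK cell receptors. Of those detected, H2-Q2, H2-Q5, H2-Q6 and H2-T23 lay within 2-fold on all arrays. So did the class I-like H2-Gs10 and H2-Bl, the latter without a listed position. H2-K2 did too, which is listed as non-coding and has its probes near those of H2-K1. H2-T23, which encodes Qa-1 and is read by NK cells, measured 2.87 in stem cells, 3.29 in tissue, 3.27 in wild type and 3.06 in transgenic ligament. H2-Q7, 1 of the genes of Qa-2, measured 1.18 and 1.04 in stem cells and tissue and 2.52 and 2.51 in the ligaments. It was 2.54-fold higher in wild type ligament than in stem cells. H2-T9 and H2-T10 went the other way. H2-T9 measured 0.18, 0.09, -1.64 and -2.07, and H2-T10 0.16, 0.09, -1.48 and -0.66. They read 3.55-fold and 3.12-fold lower in wild type ligament than in stem cells. The product of H2-T10 is a known ligand of gamma delta T cells. Allele differences could bear on both directions and were not tested.

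The M region holds further class I genes, among them H2-M3, which presents N-formylated peptides of bacteria and mitochondria. H2-M3 measured 0.08 in stem cells, 0.46 in tissue, -1.18 in wild type and -1.33 in transgenic ligament, 2.40-fold lower in wild type ligament than in stem cells. H2-M2 was level, at -0.23, 0.14, 0.26 and 0.21. Of 15 M region probes, 9 were dim everywhere, and those for H2-M1, H2-M9, H2-M10.4 and H2-M11 were well above background on a single array each. The M1 and M10 families are known mainly from the vomeronasal organ.

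The light chain and the loading machinery stood in the opposite order to the classical heavy chains: higher in the cultured samples than in ligament. B2m measured 5.73 in stem cells, 6.08 in tissue, 3.22 in wild type and 3.30 in transgenic ligament, a 5.69-fold lower signal in wild type ligament than in stem cells. Tap2, a chain of the peptide transporter, measured 2.39, 2.31, 0.62 and 0.72 (3.42-fold lower). Tapbp, which encodes tapasin, measured 1.82, 1.84, 0.63 and 0.77 (2.28-fold lower). Tap1, the partner chain of Tap2, measured -1.82 in stem cells and -3.15 in tissue and was not well above background in either ligament, at least 3.01-fold lower in wild type ligament than in stem cells. All 4 of these genes were thus lower by 2-fold or more in wild type ligament, as were 21.1% of all 24018 probes that entered. With normexp Tap1 came to -0.38. Within each pair of like samples B2m, Tap2 and Tapbp differed by 0.35 or less, though B2m stood 1.11 higher in tissue than in stem cells with quantile normalization.

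Transfected tissue was set against stem cells to ask what came with gene A and the formation of the tissue. The classical class I chains differed little, while Tap1 and a pair of immunoproteasome subunits were lower in the tissue and the invariant chain Cd74 was higher. The furthest apart were weakly read class I genes, H2-Q8 (lower) and H2-M9 and H2-T24 (higher). Of 38 member probes that entered, 4 were higher by 2-fold or more (11.3% of all 23196 probes that entered were) and 5 lower (12.8% of all probes). The median difference was 0.01, against -0.06 over all probes. The shares lie near the background, so the members as a whole did not stand out, and what follows concerns single genes.

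**Figure D3:**
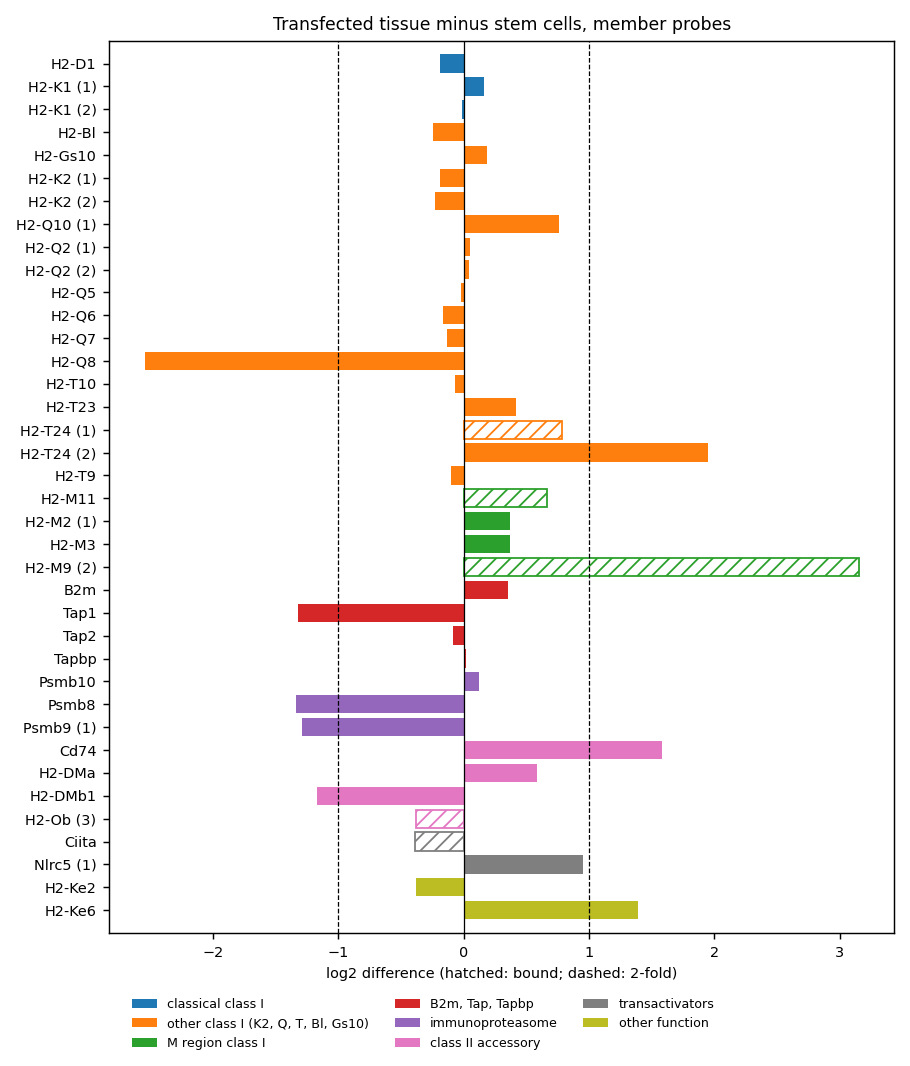
Difference in normalised signal (log2, horizontal axis) between the transfected tissue and stem cells for the 38 member probes that entered, coloured by role, with hatched bars for bounds and dashed lines at 2-fold. H2-Q8, Tap1, Psmb8, Psmb9 and H2-DMb1 pass the line on the left, and H2-M9, H2-T24, Cd74 and H2-Ke6 on the right.

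The immunoproteasome replaces the 3 catalytic subunits of the proteasome, Psmb6, Psmb7 and Psmb5, with Psmb9, Psmb10 and Psmb8, which favour peptides that fit class I. Psmb8 measured 0.15 in stem cells, -1.19 in tissue, -0.16 in wild type and -0.68 in transgenic ligament. Psmb9 measured 0.76, -0.53, 0.25 and -0.40. Psmb10 measured 3.15, 3.28, 3.39 and 2.78. The tissue was lower than stem cells for Psmb8 by 2.52-fold and for Psmb9 by 2.45-fold, with Psmb10 at a difference of 0.12. Tap1 was lower by 2.501-fold. These 3 genes lie next to each other in the class II region, with probes at chr17:34319174-34319233 for Psmb9, chr17:34330854-34330913 for Tap1 and chr17:34337771-34337830 for Psmb8. Tap2, the next of them at chr17:34353116-34353175, differed by -0.08. The differences for Psmb8, Psmb9 and Tap1 ranged from -1.34 to -1.16 over the main setting and 4 other ways of scaling or background correction.

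All 14 core proteasome subunits listed were also below 0 in this comparison, with a median of -0.42, but none reached 2-fold, and with quantile normalization 5 of them lay above 0 (median -0.145). The replaced subunits Psmb5, Psmb6 and Psmb7 stood at -0.39, -0.75 and -0.60. The proteasome activators Psme1 and Psme2, which interferon-gamma also raises, stood at -0.10 and -0.52, and none of the 5 activator and assembly genes reached 2-fold.

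In transgenic minus wild type ligament the 3 immunoproteasome subunits stood at -0.52 (Psmb8), -0.66 (Psmb9) and -0.60 (Psmb10), each beyond the spot noise and below 2-fold. The 14 core subunits had a median of -0.06 there, which turned to 0.07 with quantile normalization, and 4 of the 5 activator and assembly genes were below 0, or 3 with quantile normalization.

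**Figure D4:**
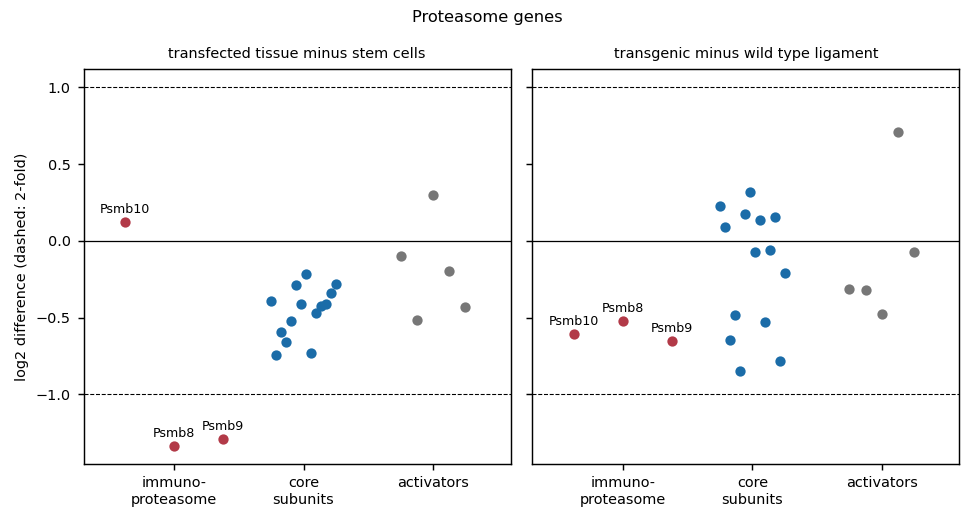
Difference in normalised signal (log2, vertical axis, dashed lines at 2-fold) for the immunoproteasome subunits in red, 14 core proteasome subunits in blue and 5 activator or assembly genes in grey, in tissue minus stem cells on the left and transgenic minus wild type ligament on the right. Psmb8 and Psmb9 lie below -1 on the left and all 3 subunits lie between -0.66 and -0.52 on the right.

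Cd74, the invariant chain that guards the groove of class II molecules and also acts as a receptor for the cytokine Mif, measured -0.69 in stem cells, 0.89 in tissue, 1.87 in wild type and 2.00 in transgenic ligament. It was well above background on every array and 2.99-fold higher in tissue than in stem cells. H2-DMb1, a chain of the peptide editor of class II, measured 2.62, 1.45, 0.68 and 0.64, and was lower by 2.25-fold in the tissue. Its partner H2-DMa measured -0.68, -0.09, -1.88 and -2.87. The class II chains themselves were not well above background in either cultured sample, so Cd74 and H2-DM were read there without them. Of the leukocyte genes Ptprc, Laptm5, Coro1a, Cd53 and Cd52, 2 were well above background in stem cells and 1 in the tissue, and their summed level went from -2.57 to -2.83 (log2). The macrophage list had 8 and 6 of 14 genes detected, and Emr1 and Mrc1 were dim in both. Its summed levels of 3.34 and 3.37 rested mainly on Itgam (2.94 and 3.08). Of 8 macrophage genes that entered, 3 were lower by 2-fold or more in the tissue, Csf1r (-1.12), Lyz2 (-2.14) and C1qa (at least 6.28-fold), with a median of -0.64. Of 4 dendritic genes that entered, Siglech was higher (2.81) and Ccr7 lower (at least 2.14-fold), with a median of -0.17. Summed levels of the dendritic list went from 1.75 to 4.51 and rested mainly on Siglech (1.69 and 4.50). None of the 3 B cell genes that entered passed 2-fold. The part of such cells in the Cd74 values was not tested.

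H2-Q8 measured -2.33 in stem cells, -4.87 in tissue, -0.79 in wild type and -1.13 in transgenic ligament, and was 5.82-fold lower in the tissue. H2-T24 by the probe detected on all arrays measured -5.00, -3.05, -3.11 and -3.59, 3.86-fold higher in the tissue. H2-M9 was well above background in the tissue alone, at -2.64 by 1 of its probes, at least 8.88-fold above stem cells, while its other probe was dim on all arrays. These are weak signals. With the normexp background correction H2-T24 came to 0.90, under 2-fold, H2-M9 to 1.58 and H2-Q8 to -1.86. H2-Ke6, the steroid dehydrogenase gene, measured 0.80, 2.19, 3.23 and 3.48, and was 2.63-fold higher in the tissue. H2-Ke2 measured 2.05, 1.67, 2.71 and 2.25.

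The transactivators were weak. Nlrc5, which drives class I, Tap1 and Psmb9, measured -5.17 in stem cells, -4.22 in tissue, -2.18 in wild type and -2.15 in transgenic ligament, and its difference of 0.95 between tissue and stem cells ranged from 0.16 to 1.08 over the settings. Ciita, the master regulator of class II, was barely above background in stem cells (-5.32) and transgenic ligament (-3.08) and not well above it elsewhere. Its probe (chr16:10526568-10526627) is rich in an adenine-cytosine repeat, shown by its first 30 bases, and whether its faint signal comes from Ciita RNA was not tested.
Ciita probe: gccccatctaatgcaaaacaaaacaaaacg

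Around the members, the 13 genes of the interferon pathway that entered had a median of 0.06 in the tissue. Of these, 1 was higher by 2-fold or more and none was lower. Irf1, an interferon-induced transcription factor, stood at 0.06 and Irf7 at 0.77. Ifng and Ifnb1 were dim on all 4 arrays. Of 11 genes of the loading complex and its neighbours, the chaperone Calr was higher (1.35) and the translocon subunit Sec61g lower (-1.42). Among 6 detected genes for CD1, MR1, the neonatal Fc receptor and other class I-like proteins, Hfe was higher (1.40) and none was lower. The class II promoter factors had Rfxap higher (1.16, or 0.66 with normexp) of 6 that entered, and Rfx5 was dim in both samples.

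Ligands of the NK receptors related to class I had the lowest median of the pathway lists in this comparison. Of 6 that entered, 5 were lower by 2-fold or more in the tissue and none higher, with a median of -1.80. Raet1b went from 1.35 in stem cells to -0.62 in tissue (3.91-fold lower) and Raet1e from 1.64 to -0.39 (4.08-fold lower). Raet1c differed by -1.63, and Raet1a and Ulbp1 were lower by at least 3.03-fold and 4.53-fold. The Raet1 genes encode stress-induced ligands of NKG2D and are close relatives, and cross-binding of their probes was not tested. The same 5 of 6 were lower by 2-fold or more under each of the 4 other settings. Among costimulatory genes Cd80 was lower (-1.37), and Cd274, the checkpoint ligand PD-L1, was detected in the tissue alone, at least 3.73-fold above stem cells, though its difference was 0.39 with normexp.

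Of genes of the same chromosome region that do not present antigen, 3 of 18 were higher and 2 lower by 2-fold or more, near the shares of 11.3% and 12.8% over all probes (median -0.12, or 0.00 with quantile normalization). They were Ring1 (2.15), Tnxb (1.87, or 0.59 with normexp) and C4b (1.23) on the high side, and the mitotic kinesin Kifc1 (-3.76) and Ltb (at least 2.34-fold lower) on the low side.

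The comparison of transgenic with wild type ligament asks what came with gene A in the animal. Of 43 member probes that entered, 2 were higher by 2-fold or more (6.03% of all 21338 probes) and 4 lower (6.96%). The median was -0.05 against 0.00 over all probes. In either direction 13.95% of the member probes and 13.0% of all probes passed 2-fold, so the members as a whole did not stand out. The higher ones were H2-M1 (-1.41 in transgenic ligament, at least 4.00-fold) and H2-M10.4 (-1.71, at least 3.27-fold), both dim on all other arrays. The lower ones were the second H2-Q10 probe (2.55-fold), H2-Oa (at least 2.41-fold) and 2 of the 3 H2-Ob probes (at least 3.28-fold and 2.24-fold). H2-Oa and H2-Ob form the inhibitor of H2-DM and are known mainly from B cells. With normexp, only H2-M1 of these 6 probes kept a 2-fold difference, at 1.097.

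The class II chains form the peptide-binding pair itself. H2-Ab1 measured 3.00 in wild type and 3.48 in transgenic ligament by 1 probe and 3.04 and 3.49 by the other. H2-Aa, its alpha chain partner, measured 0.38 and 0.72, and H2-Eb1 measured 2.31 and 2.82. None was well above background in stem cells or tissue, a pattern shared by 1345 of the 39429 probes on the array (3.41%). Wild type ligament was above stem cells by at least 444-fold and 454-fold for the H2-Ab1 probes, 275-fold for H2-Eb1 and 72.0-fold for H2-Aa. These sizes depend on the background: with normexp the differences were 6.55 and 6.69 for H2-Ab1, 5.67 for H2-Eb1 and 3.92 for H2-Aa (log2), against 8.79, 8.83, 8.11 and 6.17. A ligament sample holds many cell types, and whether more cells of a type or more RNA in each lies behind such a level cannot be told apart. Between the ligaments the 4 probes were 0.34 to 0.51 higher in the transgenic sample, beyond spot noise but under 2-fold, and 0.28 to 0.56 over the main setting and 4 others. Cd74 differed by 0.13.

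Marker genes of cells known to make class II did not all differ in that direction. In transgenic minus wild type ligament, 5 of the 10 listed B cell genes entered, and all 5 were lower by 2-fold or more (median -1.56). Cd79b, a chain of the B cell receptor complex, was at -1.98. Of 5 general leukocyte genes 3 were lower, including Coro1a (-2.03) and Cd52 (-1.83). With normexp 3 of the B cell genes and 2 of the leukocyte genes stayed past 2-fold, and all of both lists stayed below 0. Summed levels went from 3.06 to 1.37 (log2) for the B cell list and from 4.87 to 3.03 for the leukocyte list. The macrophage list was nearly level, with 1 of 12 lower, Lyz2 (-2.70), a median of -0.11 and summed levels of 5.36 and 5.09. Its genes Emr1, Mrc1, C1qa, C1qb and Csf1r differed by -0.43, 0.06, -0.11, -0.02 and -0.26. Of 7 dendritic genes that entered, Cd207, the Langerhans cell lectin, was detected in transgenic ligament alone (at least 4.55-fold higher), while Ccr7 (-1.29) and Flt3 (at least 2.20-fold) were lower and the median was -0.12. Of 8 epidermal genes, 6 were higher (median 2.09). All 10 neutrophil genes were lower (median -2.36). The part of these cells in the member values was not tested.

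**Figure D5:**
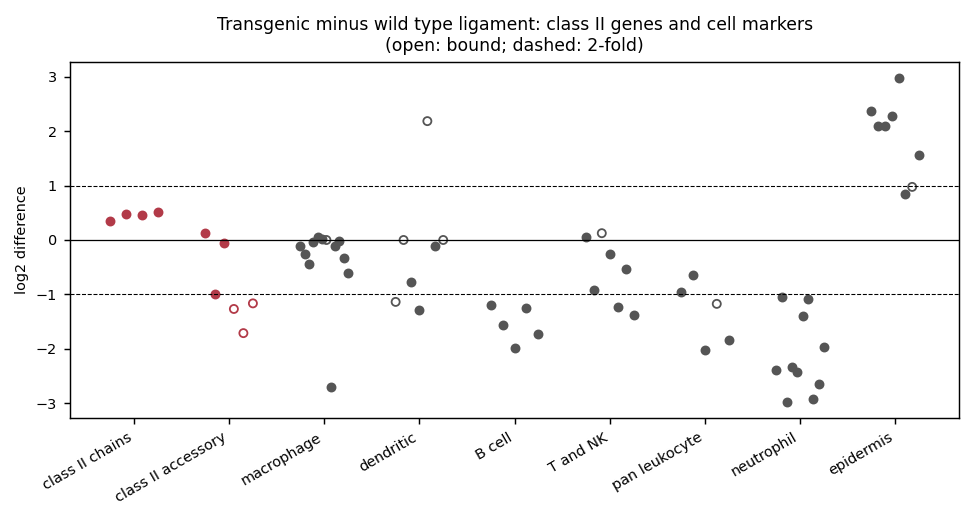
Difference in normalised signal (log2, vertical axis) between transgenic and wild type ligament for the class II chains and accessory genes in red and for markers of other cells in grey, 1 point per probe or gene, with open points for bounds and dashed lines at 2-fold. The class II chains lie between 0.34 and 0.51, the macrophage genes have a median of -0.11 with Lyz2 apart at -2.70, and B cell and neutrophil genes below -1.

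Genes around the members followed in part. Irf7 and Irf8, the latter a factor of myeloid and B cells, were lower in transgenic ligament by -1.42 and -1.55, the only 2 of 13 interferon pathway genes past 2-fold. Ltb, a lymphocyte cytokine, differed by -2.01. The chaperones Hspa5 (1.45) and Pdia4 (1.20) were higher and Ube2l6 lower (-1.65) among 11 loading genes. Cd80 differed by -1.10 and Cd83 by 1.02. Rfx5 was well above background in wild type ligament alone, and at least 2.63-fold lower in the transgenic sample. With normexp Irf7 (-0.71), Pdia4 (0.61), Cd80 (-0.64), Cd83 (0.71) and Rfx5 (-0.55) kept their direction and were under 2-fold.

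None of the 34 member probes that entered both of these comparisons passed 2-fold in both, against 3.61% of the 18796 probes overall that entered both, a share too low for the count to say anything of the members. These comparisons share no array.

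Wild type ligament was last set against the stem cells, a whole tissue against cells grown in culture. The detected class II chains and 2 of 3 classical heavy chain probes were higher in ligament by 2-fold or more, and the light chain with its loading machinery was lower. Of 42 member probes that entered, 16 were higher by 2-fold or more (32.4% of all 24018 probes) and 9 lower (21.1%), with a median of 0.35 against 0.00. These medians include bounds, some of them at 0. Over all probes well above background on both arrays the median was 0.292. In either direction 59.52% of the member probes and 53.52% of all probes passed 2-fold. The shares lie near the background, so the values here concern single genes. All 4 detected class II chain probes, Cd74 (5.90-fold), H2-Ob and H2-Oa were higher, as were Nlrc5 (7.96-fold) and H2-Ke6 (5.40-fold). On the low side stood B2m, Tap1, Tap2, Tapbp, H2-M3, H2-T9, H2-T10, H2-DMa (2.31-fold) and H2-DMb1 (3.84-fold). With normexp Tap1 (-0.38), H2-M3 (-0.92) and H2-DMa (-0.76) were under 2-fold. None of the immunoproteasome genes passed 2-fold. Ctss, the protease that trims the invariant chain in professional antigen-presenting cells, was at 1.31 and 1.06 in the ligaments and not well above background in the cultured samples.

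Markers of most, but not all, listed cell types were higher along with these class II values. All 5 general leukocyte genes were higher in wild type ligament than in stem cells by 2-fold or more, with summed levels of 4.87 and -2.57 (log2). The same was so for 5 of 6 B cell genes and 10 of 11 macrophage genes that entered. It was also so for all 10 neutrophil, 8 erythroid, 9 skeletal muscle and 7 epidermal genes that entered and for 7 of 8 endothelial genes, so such values were not limited to leukocytes. Mesenchymal markers went the other way, with 1 of 9 higher and 8 lower (median -1.865). Of 7 tendon markers, 4 were higher and 2 lower. Over all probes 32.4% were higher and 21.1% lower. Cd86, Cd40 and Icosl, costimulatory genes of antigen-presenting cells, were detected in the ligaments and not in the cultured samples.

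Transfected tissue against wild type ligament used 2 of the arrays above and repeats their contrasts. Of 44 member probes that entered, 7 were higher by 2-fold or more in the tissue (20.2% of all 23818 probes) and 16 lower (34.0%), with a median of -0.16 against 0.00. Both medians include bounds, some of them at 0. Over all probes well above background on both arrays the median was -0.384. With quantile normalization the split was 10 and 13. B2m was 7.25-fold higher in the tissue, Tap2 3.23-fold and Tapbp 2.32-fold. H2-D1 was 6.13-fold lower, the repeated H2-K1 probe 5.50-fold and H2-Q8 16.9-fold. The class II chains were lower by at least 67.9-fold (H2-Aa) to 428-fold (H2-Ab1). Cd74 lay 1.97-fold below ligament in the tissue, where stem cells lay 5.90-fold below. Psmb8 was 2.03-fold and Psmb9 1.72-fold lower in the tissue than in wild type ligament, and under the 4 other settings Psmb8 was under 2-fold, from -0.99 to -0.81. Tissue minus stem cells and tissue minus wild type ligament share the tissue array, so these values are not independent of those above.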

How the data were processed

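Gene expression was measured in 4 mouse samples on Agilent single-colour (Cy3) 60-base arrays, 1 each. Per the file headers, the authors' scanner files hold spot intensity, background-subtracted and detrended on a linear scale, from Feature Extraction 10.7.1.1, without normalization between arrays. The submitters' processing notes name version 9.5.1.1, and this was not settled. The deposited value table also holds intensity, already evened between arrays, and served as an alternative.

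Outlier and control spots were dropped and spots of a probe averaged as log2. A mark on at least 0.5 of its kept spots made a probe well above background. Probes kept the files' symbols, so no probe was realigned. Any member probe could be named. Of other lists, a set of regulators and partner subunits and up to 4 genes with the largest differences were named, with further marker and pathway genes named after their values were seen. The members, lists and settings were chosen with earlier results of these data known. With 1 array a group there is no test and no p-value. The calls were tested on simulated data (pandas 2.3.3, numpy 2.4.6). Alternatives were normexp with offset 50 (limma 3.58.1, R 4.3.3), quantile normalization, the deposited table, the 75th percentile over only those probes well above background on all 4 arrays, other filters, 4-fold, and other ways to merge probes. The number of arrays limits the precision. Values of some single genes of the interferon and B cell lists are not reported here.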

Additional observations from a re-analysis of the deposited data

How the results depend on the processing

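No paired analysis was possible because each group held 1 array and the labels give no replicate numbers. In every setting that changed only scaling or background, all probes past 2-fold kept their direction. Those still past 2-fold were 8 of 9 in tissue minus stem cells and 1 of 6 in transgenic minus wild type under normexp, 22 to 25 of 25 in wild type ligament minus stem cells and 20 of 23 in tissue minus wild type ligament under each. B2m, at 0.35 in tissue minus stem cells, reached 1.11 with quantile normalization and 1.04 in the deposited table. H2-DMa, at -0.99 in transgenic minus wild type, reached -1.24 and -1.35 there. Weak signals limit H2-M1, H2-M9, H2-M10.4, H2-Q8, H2-T24, H2-Oa, H2-Ob, Ciita and Nlrc5, and the cause of each shift was not tested.

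At 4-fold, 1 member probe was higher and 1 lower in tissue minus stem cells, and 1 higher and 0 lower in transgenic minus wild type. In wild type ligament minus stem cells 1 was lower, B2m. Higher there were the detected class II chains, Cd74, H2-Oa, H2-Ob, H2-D1, the repeated H2-K1 probe, the second H2-Q10 probe, Nlrc5 and H2-Ke6. In tissue minus wild type ligament 1 was higher, also B2m. Lower there were the same genes without Cd74 and H2-Ke6 but with H2-Q8. The share of all probes past 4-fold was not analysed here. Normexp left 1 higher and 0 lower in transgenic minus wild type, against 2.19% and 3.25% of all probes. Quantile normalization gave member medians of 0.096 for wild type ligament minus stem cells and -0.008 for tissue minus wild type ligament, and 0.085 and -0.008 came from the deposited values. Centring on detected probes gave 0.0 for the latter. Probes well above background on both arrays gave 0 higher and 1 lower of 37 in transgenic minus wild type (4.59% and 5.68% of all probes). They gave 9 of 33 higher in wild type ligament minus stem cells (34.12%) and 8 of 32 lower in tissue minus wild type ligament (36.01%). Without filter or bounds, all 67 member probes entered. There were 7 higher in tissue minus stem cells (9.95% of all probes) and 4 higher in transgenic minus wild type (7.15%, medians -0.206 and -0.302). In wild type ligament minus stem cells 41 were higher (median 2.129), against 56.74% of all probes (median 1.505). In tissue minus wild type ligament 37 were lower (median -1.479), against 58.0% of all probes (median -1.576). The last 2 counts lie near those shares. One probe a symbol left 2 of 37 lower in transgenic minus wild type (6.79% over the array), and the mean of probes 1 of 37 (7.64%). The mean of probes gave a median of -0.353 in tissue minus wild type ligament, against -0.16 over the array.

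Over all probes, calls in tissue minus stem cells were 47.0% higher, against 33.4% with normexp (1349 higher against 2629, median -0.168), and centring gave 3239 higher and 2444 lower, against 2629 and 2960. They were 468 higher and 694 lower with normexp in transgenic minus wild type, against 1287 and 1486. The share higher was 60.6% in wild type ligament minus stem cells, 48.8% with quantile normalization and 77.6% unfiltered. In tissue minus wild type ligament it was 37.3%, 51.4% and 21.3%.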
